A study of Homo sapiens with 5 samples.

Results

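Interferon-stimulated antiviral genes are the genes that cells switch on after type I or type III interferon has bound its receptor. A list of 49 such genes was followed through 5 clones of the TE7 line, which derives from a human esophageal carcinoma, and 35 of them had a named probe set on the array used. Genes were listed by symbol, each of the 35 was represented by 1 probe set, and the whole table held 14812 named genes. By role, 22 of the 28 listed effectors, 6 of the 11 sensors and 7 of the 10 signalling factors were measured. Not analysed here, for want of a named probe set, were the effectors MX1, IFI6, IFI27, CMPK2, PARP12 and LGALS3BP, the sensors OAS1, OAS2, OAS3, ADAR and IFI16, and the signalling factors STAT2, PARP9 and PARP14.

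The control group was 2 clones transduced with pMIRNA1-puro-control and the CDH26 group was 3 clones transduced with pMIRNA1-puro-CDH26, a construct that expresses CDH26, a member of the cadherins, which bind cells to each other when calcium is present. Each clone was grown from a single cell to confluence and then kept for 24 h in RPMI with 1.8 mM calcium, and its total RNA was hybridised to 1 Affymetrix Gene 2.0 ST array. No interferon treatment and no virus other than the transduction is named in the labels, and all 5 clones, controls included, were transduced. The clones of a group are separate clones, so the spread between them holds clonal as well as array differences.

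The deposited logarithms, taken here as log2, are centred so that the 2 control clones average 0. They show differences between clones and hold no expression level, so whether a member was abundant or silent, or whether the cells carried the markers of their labelled origin, could not be read. Precision is limited by the small number of arrays. The construct's own transcript, CDH26, was at 0.0067 and −0.0067 in the control clones and at 2.87, 3.01 and 2.63 in CDH26 clones 1, 2 and 3, which matches the labels of all 5 arrays. Of the cell type markers, 3 of 5 squamous genes were measured (KRT5, KRT14 and SFN) and were higher in the CDH26 clones by 0.61 to 2.72. All 4 columnar genes were measured (KRT8, KRT18, KRT20 and VIL1) and differed by −0.29 to −0.0020, with a median of −0.15, while CD14, the 1 of 5 leukocyte genes measured, was at −0.04 and THY1, the 1 of 4 fibroblast genes, at −0.16. The part of the squamous and columnar markers in the results below was not tested.

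In the textbook pathway, interferon receptors activate the kinases JAK1 and TYK2. A complex that contains STAT2 and IRF9 then enters the nucleus and binds the interferon-stimulated response element, a DNA motif in the promoters of the target genes. The products include sensors of viral RNA or DNA, effectors that block entry, translation or replication of viruses, and signalling factors that amplify or brake the response.

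The response element core was looked for in RefSeq promoter windows of GRCh38.p14, which run from 250 bases before to 50 after a transcription start. The letters searched were GAAA, any 2 bases and GAAA again, or on the other strand TTTC, any 2 bases and TTTC, and overlapping matches were counted separately. Of the 35 measured members 27 had an entry in the table, and 21 of these, 77.8%, held at least 1 match. Among all 10736 named genes with an entry 3.89% did, and 3.57% of all 35116 windows did. IFIT2, IFITM2, MX2, TRIM22, DHX58, OASL, IRF7 and USP18 had no entry, so their promoters were not searched. A match is a string of letters in the window, not a measured binding site.

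The stretches around the matches are shown first for members whose values differed most between the groups, with their neighbours DDX60L and SAMD9. Each runs 5′ to 3′ along the gene's strand, with 10 bases before the first match and up to 10 after the last, cut at the transcription start unless a match crosses it. Capitals mark the matches.
IFI44 (chr1:78649761-78649788, plus strand): gcacactgagTTTCAGTTTCctttctct
IFI44L (chr1:78620274-78620394, plus strand): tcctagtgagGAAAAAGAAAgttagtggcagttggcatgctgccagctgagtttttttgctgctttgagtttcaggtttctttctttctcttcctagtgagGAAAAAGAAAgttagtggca
DDX60 (chr4:168318786-168318850, minus strand): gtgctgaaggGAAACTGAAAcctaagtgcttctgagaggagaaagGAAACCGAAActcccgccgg
DDX60L (chr4:168480523-168480582, minus strand): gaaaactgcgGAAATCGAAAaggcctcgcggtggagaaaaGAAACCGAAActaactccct
IFIT1 (chr10:89392497-89392539, plus strand): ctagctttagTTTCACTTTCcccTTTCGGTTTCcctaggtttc
IFIT3 (chr10:89327831-89327894, plus strand): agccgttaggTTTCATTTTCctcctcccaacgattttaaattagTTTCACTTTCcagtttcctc
HERC5 (chr4:88456984-88457064, plus strand): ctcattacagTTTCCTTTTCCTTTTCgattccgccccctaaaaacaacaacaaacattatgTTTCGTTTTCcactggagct
SAMD9 (chr7:93118096-93118125, minus strand): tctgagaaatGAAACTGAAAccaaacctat
In IFI44L the first 30 bases of the stretch recur as its last 30, so its 2 matches lie in identical surroundings. The same core stood in the promoters of members with smaller differences, from −0.15 in EPSTI1 to 0.20 in ISG15, shown next.
IFIT5 (chr10:89414513-89414573, plus strand): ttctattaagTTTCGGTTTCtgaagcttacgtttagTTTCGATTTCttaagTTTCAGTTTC
EPSTI1 (chr13:42992272-42992301, minus strand): ctgattctgaGAAACCGAAActcagctgtt
BST2 (chr19:17405735-17405770, minus strand): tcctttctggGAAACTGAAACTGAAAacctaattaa
RTP4 (chr3:187368333-187368384, plus strand): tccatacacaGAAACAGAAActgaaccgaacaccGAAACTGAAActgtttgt
ISG15 (chr1:1013374-1013409, plus strand): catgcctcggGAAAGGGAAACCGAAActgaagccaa
IFIT5 held 3 matches, as many as HERC5 and more than IFI44, which held 1. The window was without a match for SAMD9L, HERC6, IRF9, IRF1, XAF1 and IFI35, which says only that these letters are absent from it. The 21 members with a match had differences from −0.18 to 2.50 with a median of 0.20, and the 6 without had differences from −0.06 to 1.06 with a median of 0.32.

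**Figure D1:**
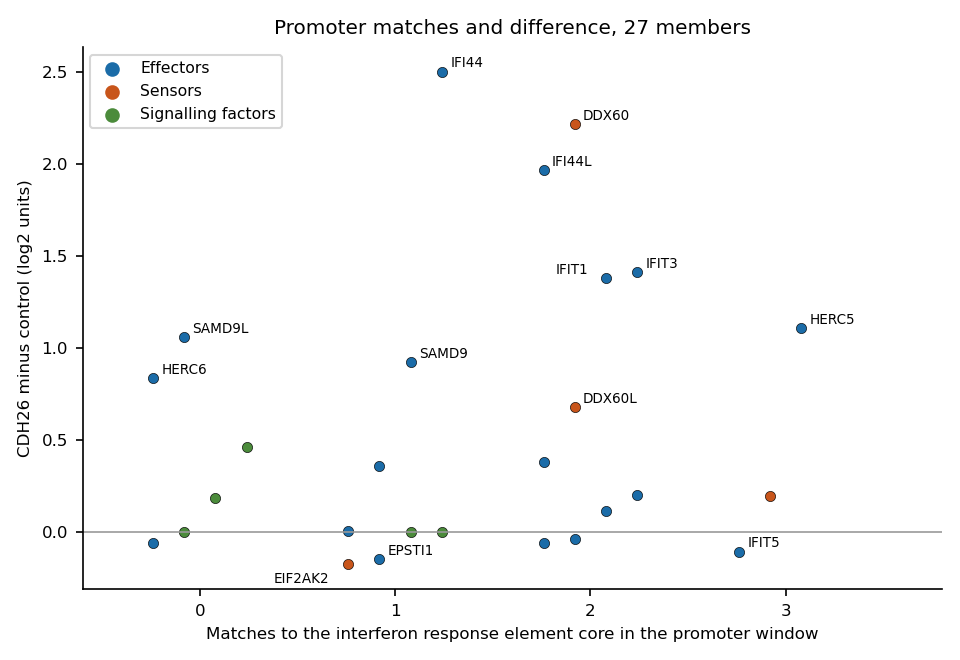
The horizontal axis gives the number of matches to the response element core in a member's promoter window and the vertical axis its difference, CDH26 minus control, in log2 units; each point is 1 of the 27 members with a promoter entry, spread sideways so that points do not cover each other. Members with 2 or 3 matches range from IFIT5 at −0.11 to DDX60 at 2.22, and SAMD9L stands at 1.06 with 0 matches.

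The main comparison asked how the members differed between CDH26 and control clones. Effectors and sensors made up all of the larger differences, and signalling factors had none. IFI44 was higher by 2.50 ± 0.56 log2 units (SE), DDX60 by 2.22 ± 0.48, IFI44L by 1.97 ± 0.86 and IFITM2 by 1.92 ± 0.82, followed by IFIT3, IFIT1, OASL, HERC5 and SAMD9L at 1.41 to 1.06. No member passed an adjusted p of 0.05 in limma (Benjamini-Hochberg, all 14812 genes adjusted together), and neither did any other gene (percent called 0.0%). That holds for the construct's own transcript too, since CDH26 had an adjusted p of 0.25 in limma. Adjusted p ranged from 0.626 to 1 over the members, and 8 had an unadjusted p under 0.05, all with higher values in the CDH26 clones.

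The distribution of the members can be set beside that of all genes. The median difference was 0.20 over the 35 members and 0 over all 14812 genes. At least 1 log2 unit higher, which is a factor of 2, were 9 members, or 25.7%, against 0.506% of all genes, and none was at least 1 lower, against 0.142%. An unadjusted p under 0.05 with a higher value was found for 22.9% of members against 3.51% of all genes, and with a lower value for 0 members against 4.0%. The 3 CDH26 clones all lay above both control clones in 11 members, 31.4% against 8.98%, and all below in 1 member, IFIT5, 2.86% against 9.93%. On average 26 members were higher in the CDH26 group, 74.3% against 47.9% of all genes, and 8 were lower, 22.9% against 49.5%, with IFI35 equal. These members were listed with earlier results from the same arrays known, so the counts describe them and are no independent evidence of a direction.

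**Figure D2:**
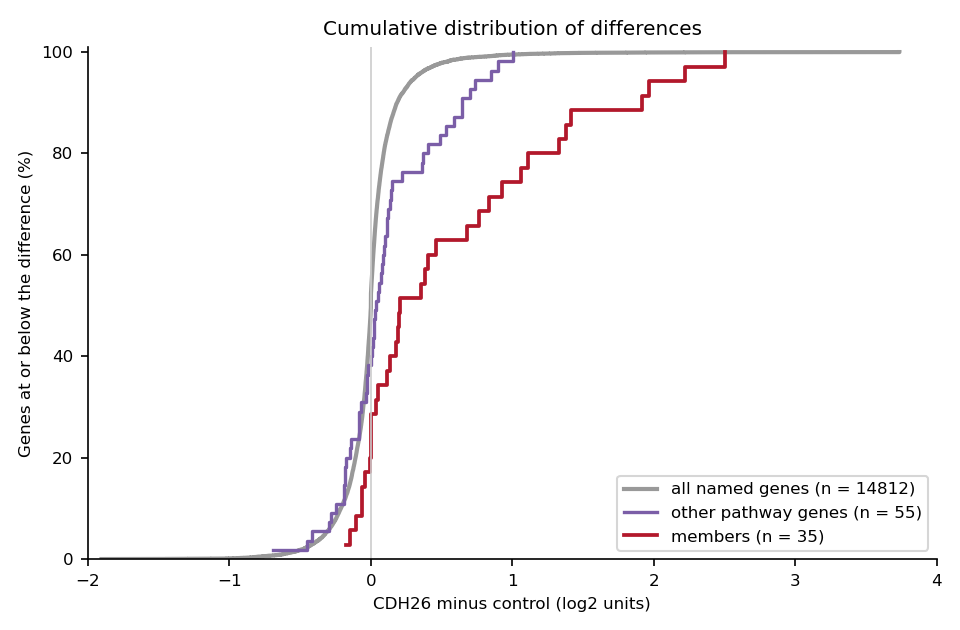
Cumulative distribution of the difference, CDH26 minus control in log2 units on the horizontal axis, as the percentage of genes at or below each value on the vertical axis, for all 14812 named genes, the 55 other pathway genes and the 35 members. Fewer of the members than of the other sets lie at or below 1, the members end at 2.50 and the pathway genes at 1.00, and the line of all genes runs on to 3.74.

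The controls themselves were not alike. Without control clone 1 the members at least 1 higher were 4 (IFITM2, IFI44, IFI44L and DDX60), 11.4% against 0.79% of all genes in the same fit, with a median over the members of 0.085. With control clone 2 left out they were 11, 31.4% against 0.608%, and the median was 0.55. With 1 control clone left, the spread comes from the CDH26 group alone, so members with a low p-value were not counted for these fits. Leaving out CDH26 clone 1 or CDH26 clone 2 gave 5 members each with an unadjusted p under 0.05 in limma and a higher value. That is 14.3% in each fit, against 2.21% and 1.87% of all genes. All CDH26 clones lay above control clone 1 in 25 members, 71.4% against 23.8% of all genes, but above control clone 2 in 12 members, 34.3% against 25.9%. Without CDH26 clone 3, 20 members had every CDH26 clone above both controls, 57.1% against 14.9% of all genes.

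**Figure D3:**
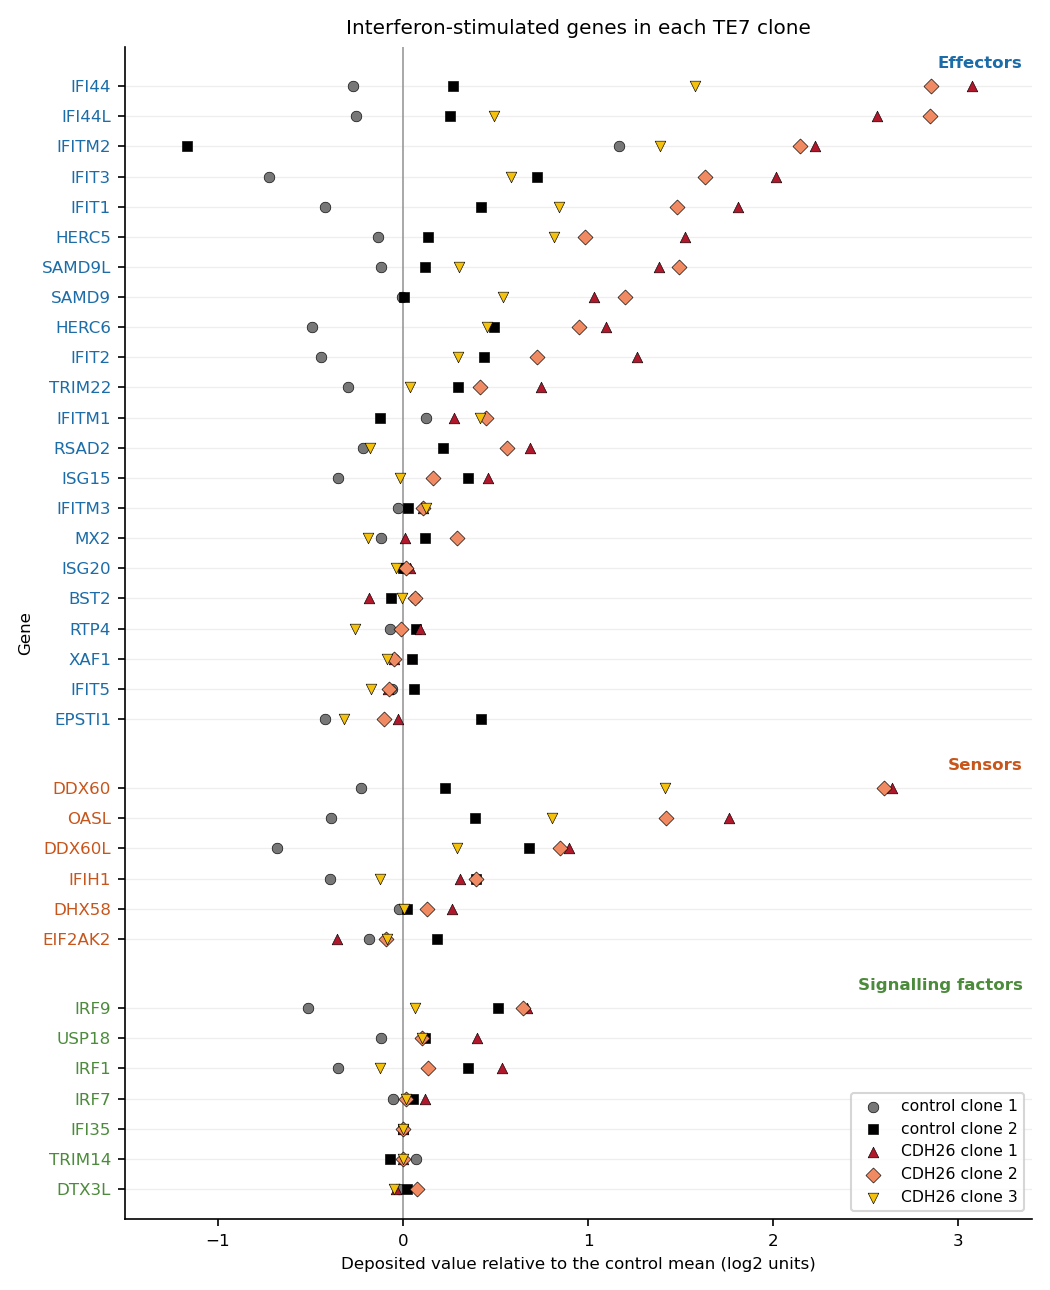
Value of each of the 35 members (vertical axis, grouped by role and ordered by difference) in each of the 5 clones, in log2 units relative to the control mean (horizontal axis); each symbol is 1 array. For IFI44 and DDX60 the 3 CDH26 clones stand clear of both controls, and in IFITM2 the controls are at 1.17 and −1.17.

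Among the effectors, the neighbouring genes IFI44 and IFI44L, which encode interferon-induced proteins of the cytoplasm, had the highest values. IFI44 was at −0.27 and 0.27 in control clones 1 and 2 and at 3.08, 2.85 and 1.58 in CDH26 clones 1, 2 and 3. Their average was 2.50 ± 0.81 (SD, n = 3), which is 5.67-fold (95% interval of the log2 difference 0.93 to 4.07). IFI44L was at −0.25 and 0.25 in the controls and at 2.56, 2.85 and 0.49 in the CDH26 clones. The groups did not overlap in either gene, but CDH26 clone 3 stood close to control clone 2 in IFI44L, whose interval ran from −0.44 to 4.38.

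The IFIT proteins bind viral RNA that lacks the host's cap modifications and block its translation. Their genes lie next to each other, and they split. IFIT1 was at −0.42 and 0.42 in the controls and at 1.81, 1.48 and 0.84 in the CDH26 clones, without overlap, a difference of 1.38 ± 0.43 (SE; interval 0.18 to 2.58). IFIT3 was at −0.73 and 0.73 against 2.02, 1.63 and 0.58, and IFIT2 at −0.44 and 0.44 against 1.26, 0.72 and 0.30. In IFIT3 and IFIT2 CDH26 clone 3 lay below control clone 2, so the groups overlapped. IFIT5, whose promoter stretch is given above, was at −0.06 and 0.06 against −0.08, −0.08 and −0.17, a difference of −0.11 ± 0.06.

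HERC5, the ligase that joins the ubiquitin-like protein ISG15 to its targets, was at −0.14 and 0.14 in the controls and at 1.52, 0.98 and 0.82 in the CDH26 clones, a difference of 1.11 ± 0.26 (SE). Its neighbour HERC6, a related ligase, was at −0.49 and 0.49 against 1.10, 0.95 and 0.45. ISG15 itself was at −0.35 and 0.35 against 0.46, 0.16 and −0.02. The groups stood apart in HERC5 alone of these genes, and ISG15 differed by 0.20 ± 0.28, less than its controls did from each other.

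SAMD9 and SAMD9L, neighbouring genes for proteins that restrict poxviruses and shut down translation, differed alike in size. SAMD9 was at −0.0029 and 0.0029 in the controls, the closest pair among the members with a larger difference, and at 1.03, 1.20 and 0.54 in the CDH26 clones (0.92 ± 0.22 SE, interval 0.29 to 1.56). SAMD9L was at −0.12 and 0.12 against 1.38, 1.49 and 0.30. Neither gene overlapped between the groups, and in both CDH26 clone 2 was highest.

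IFITM proteins sit in cell and endosomal membranes and hinder the entry of enveloped viruses. IFITM2 was at 1.17 and −1.17 in control clones 1 and 2 and at 2.23, 2.14 and 1.39 in the CDH26 clones, so the controls differed by 2.34 log2 units, the widest gap of any member and opposite in direction to most others. IFITM1 was at 0.13 and −0.13 against 0.28, 0.45 and 0.41, a difference of 0.38 ± 0.10 (SE), and IFITM3 at −0.03 and 0.03 against 0.11, 0.11 and 0.12, a difference of 0.11 ± 0.03. In the 3 genes every CDH26 clone lay above both controls, as in 8.98% of all genes. For IFITM3 the difference is 1.08-fold, and CDH26 clones 1 and 2 had the same value, which narrows its spread. The 3 genes are close relatives and neighbours, and how far probes of each also bind the others' transcripts was not tested.

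The remaining effectors differed by 0.40 or less in either direction. TRIM22, an antiviral ubiquitin ligase, differed by 0.40 ± 0.30 (SE) and RSAD2, the antiviral enzyme viperin, by 0.36 ± 0.34, with CDH26 clone 3 at 0.04 and −0.18. The dynamin-like GTPase MX2, the exonuclease ISG20, the virion tether BST2, XAF1, RTP4 and EPSTI1 ranged from −0.15 to 0.04. EPSTI1 was at −0.42 and 0.42 in the controls and at −0.03, −0.10 and −0.32 in the CDH26 clones, so every CDH26 clone lay between them.

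**Figure D4:**
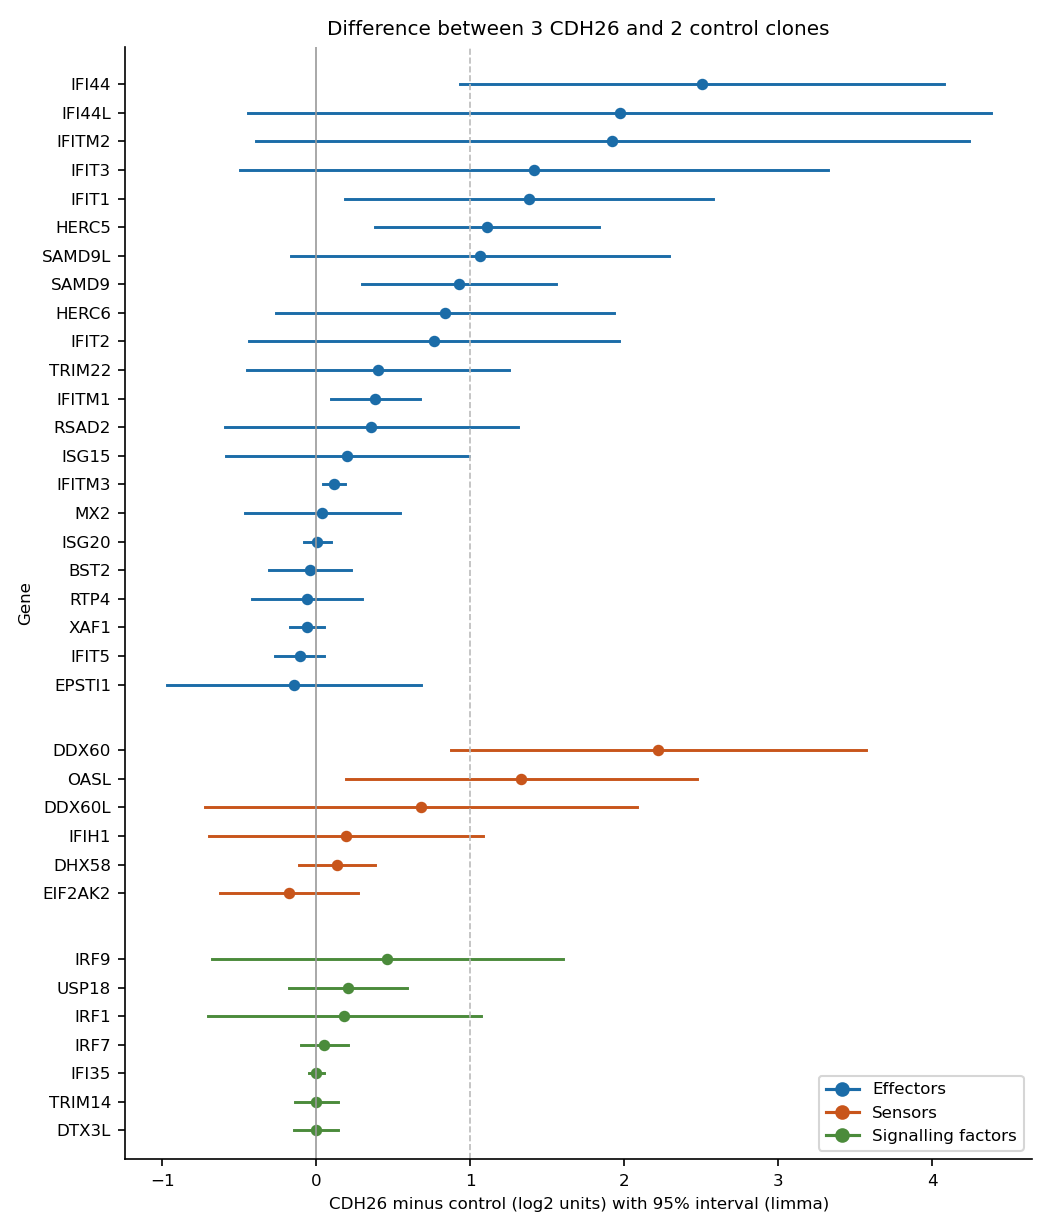
Difference between the 3 CDH26 and the 2 control clones for each of the 35 members (vertical axis, grouped by role), in log2 units on the horizontal axis, with points for the estimates, bars for 95% intervals from limma and a dashed line at 1. The intervals of IFI44, IFIT1, HERC5, SAMD9, IFITM1, IFITM3, DDX60 and OASL lie above 0, and none of these genes passes the adjusted threshold.

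Sensors detect viral nucleic acid or respond to it directly. In 2 of the 6 measured every CDH26 clone lay above both controls, beside 8.98% of all genes. In 0 of the 6 every CDH26 clone lay below both, beside 9.93%. DDX60, a helicase described as a cofactor of the RNA sensor RIG-I, was at −0.23 and 0.23 in the controls against 2.64, 2.60 and 1.42 in the other group, whose average of 2.22 ± 0.70 (SD, n = 3) is 4.65-fold (interval 0.87 to 3.57). OASL, an OAS relative that binds RIG-I and lacks the synthetase activity of the family, was at −0.39 and 0.39 against 1.76, 1.42 and 0.81, a difference of 1.33 ± 0.41 (SE). In both genes CDH26 clone 3 was the lowest of its group and still above both controls.

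DDX60L, the neighbour and relative of DDX60, was at −0.68 and 0.68 in the controls and at 0.90, 0.85 and 0.29 in the CDH26 clones. Its groups overlapped, and its difference of 0.68 went to −0.0048 without control clone 1. IFIH1, the long-RNA sensor MDA5, was at −0.40 and 0.40 against 0.31, 0.39 and −0.12, and DHX58, its regulator LGP2, at −0.02 and 0.02 against 0.27, 0.13 and 0.0057. EIF2AK2, the RNA-activated kinase PKR that halts translation, differed by −0.18 ± 0.16 (SE). The median difference of the sensors was 0.44, falling between 0.054, with control clone 1 left out, and 0.98, with control clone 2 left out.

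Signalling factors differed least. Their median difference was 0.05, against 0.39 for the effectors. Equal values between arrays were seen in the signalling factors IRF7, USP18, TRIM14 and IFI35. Among the effectors they were seen in IFITM3, ISG20 and XAF1. In the fit on genes without equal values the medians were 0.18 for signalling factors and 0.76 for effectors. Of the 7 signalling factors, 0 had an unadjusted p under 0.05 in limma, beside 3.51% of all genes with a higher and 4.0% with a lower value. Groups without overlap were seen in 0 of the 7, beside 8.98% of all genes above and 9.93% below. At such shares 0 of 7 genes says little, and the difference between roles was not tested. IRF9, a part of the complex that binds the response element, was at −0.52 and 0.52 in the controls and at 0.67, 0.65 and 0.06 in the CDH26 clones, a difference of 0.46 ± 0.41 (SE). IRF1, a transcription factor induced by interferon, was at −0.35 and 0.35 against 0.53, 0.13 and −0.12. USP18, which removes ISG15 and blocks receptor signalling, was at −0.12 and 0.12 against 0.40, 0.10 and 0.10.

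In IRF9 and IRF1 the gap between the controls, 1.03 and 0.70, was wider than the difference between the groups. IRF7, the amplifier of interferon production, differed by 0.05 ± 0.05 (SE), DTX3L, a ubiquitin ligase that acts with PARP9, by −0.0034, and the adaptor TRIM14 by −0.001. IFI35 had the same value, 0, on all 5 arrays. A different value on each was seen in 28 of the 35 members, against 46.29% of all genes (values within 1e-05 counted as equal). What makes values equal is not recorded.

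Clone by clone against the control mean, the members' median was 0.46 in CDH26 clone 1, 0.39 in clone 2 and 0.04 in clone 3, and −0.14 and 0.14 in control clones 1 and 2. At least 1 above the control mean were 12 members in clone 1, 9 in clone 2 and 3 in clone 3 (IFITM2, IFI44 and DDX60), which is 34.3%, 25.7% and 8.57% against 0.749%, 0.918% and 0.155% of all genes. At least 0.5 above it were 17, 15 and 8 members, against 2.92%, 3.23% and 1.15% of all genes, and no member was that far below it in any CDH26 clone, against 4.25%, 2.57% and 0.81%. Above both controls were 25, 23 and 11 members, or 71.4%, 65.7% and 31.4%, against 31.1%, 25.1% and 23.0%. CDH26 clone 3 was the lowest of its group in 27 members, or 77.1%, against 28.8% of all genes. The CDH26 transcript was also lowest in clone 3, at 2.63, and it was highest in clone 2, at 3.01. Whether its level bears on the members' values was not tested. Clone 1 was highest in 21 members, 60.0% against 29.0% of all genes, and clone 2 in 9, where 25.7% is near the 21.7% of all genes.

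The reference clone mattered, so each CDH26 clone was also set against each control alone, a choice made after seeing the data. Against control clone 1, 20, 18 and 12 members were at least 0.5 higher in CDH26 clones 1, 2 and 3 (2.88%, 2.76% and 1.31% of all genes) and 0 were that much lower (4.71%, 2.12% and 0.581%). Against control clone 2, 12 members were that much higher in CDH26 clone 1 and 11 in clone 2 (4.46% and 5.12% of all genes), and 1 was lower in each, EIF2AK2 and EPSTI1 (5.56% and 4.26%). Clone 3 was at least 0.5 above control clone 2 in 6 members (IFITM1, IFITM2, HERC5, IFI44, SAMD9 and DDX60), 17.1% against 3.4% of all genes, and at least that far below it in EPSTI1 and IFIH1, 5.71% against 2.6%. Over the members, the median of clone 3 minus control clone 2 was −0.04 and that of clone 3 minus control clone 1 was 0.23.

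The members also differed between clones of the same construct. Control clone 2 was above control clone 1 in 29 members, 82.9% against 42.7% of all genes, and by at least 0.5 in 14, 40.0% against 3.18%. The reverse was seen in 4 members, IFITM1, IFITM2, BST2 and TRIM14, 11.4% against 42.8%, and by at least 0.5 in IFITM2 alone, against 3.36%. In 27 members control clone 2 was above control clone 1 and CDH26 clone 1 above CDH26 clone 3, 77.1% against 20.1% of all genes. Both CDH26 clone pairs that remain gave lower counts, 25 members (71.4% against 16.1%) for clone 2 above clone 3 and 19 (54.3% against 21.2%) for clone 1 above clone 2. Across the 35 members the gap between the controls and that between CDH26 clones 1 and 3 had a Pearson r of 0.31 and a Spearman rho of 0.61, against 0.12 and 0.13 across all genes, and the points share the same 4 arrays. For CDH26 clones 1 and 2 r was 0.31 and rho 0.48, against 0.25 and 0.25, and for clones 2 and 3 r was 0.19 and rho 0.50, against −0.07 and −0.08. IFIT3 had wide gaps in both groups, at 1.45 between the controls, while IFITM2 went against the pattern.

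**Figure D5:**
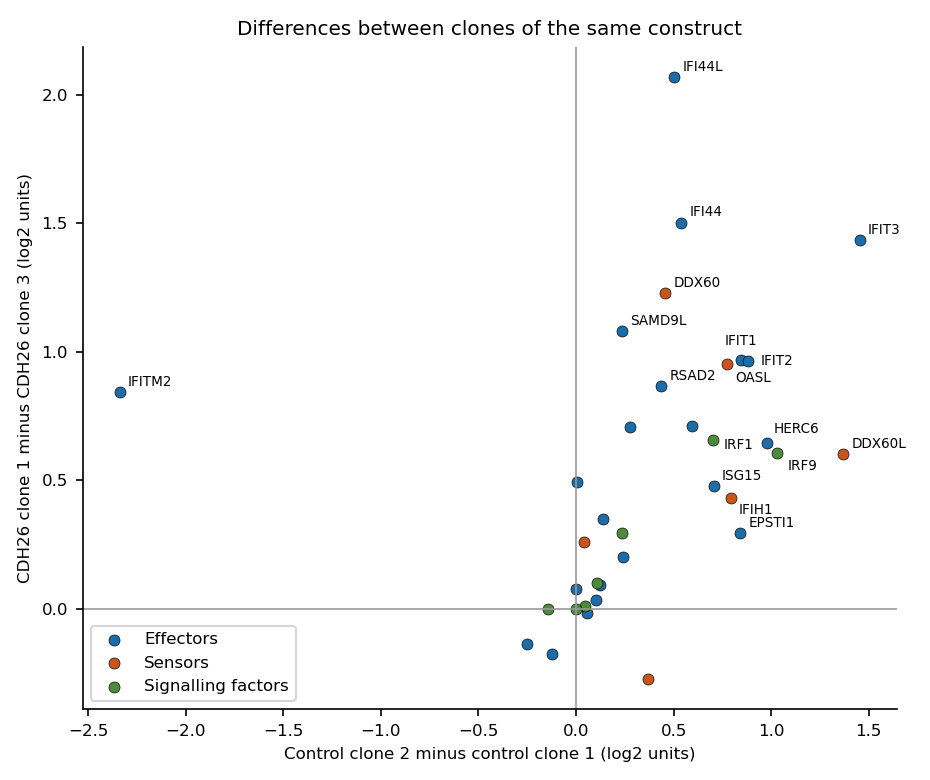
Each point is 1 of the 35 members; the horizontal axis is control clone 2 minus control clone 1 and the vertical axis CDH26 clone 1 minus CDH26 clone 3, both in log2 units. Most points, 27, lie to the upper right of the 0 lines, and IFITM2 lies alone at the far left with −2.34.

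Many members lie side by side in the RefSeq gene order. The adjacent measured pairs were IFI44L with IFI44, SAMD9 with SAMD9L, HERC6 with HERC5, DDX60 with DDX60L, IFIT2 with IFIT3, IFIT1 with IFIT5 and IFITM2 with IFITM1 and IFITM3. Flanking genes were the nearest measured genes on either side that were neither members nor among the other pathway genes described below. These 53, up to 19 genes away, had a median difference of −0.0028. Of them 1 was at least 1 higher, namely ADGRL2, an adhesion receptor gene beyond IFI44, at 2.40. Next to the IFIT genes, IFIT1B differed by −0.13 and PANK1 by −0.12, and next to IFI44L the prostaglandin receptor PTGFR differed by −0.03.

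Of 112 other genes of the interferon pathway that were listed, 55 were measured: 5 of 9 receptors and kinases, 7 of 10 transcription factors, 13 of 14 sensing genes and adaptors, 6 of 9 negative regulators and 24 of 49 other induced genes. None of the 21 listed interferon genes had a named probe set, and neither had IFNAR1 or IFNAR2, so the ligands and the type I receptor were not analysed here. In limma 0 of the 55 passed an adjusted p of 0.05, and 5 had an unadjusted p under 0.05, all higher in the CDH26 clones, where 3.51% of all genes did. The median difference was 0.04, and 1 gene was at least 1 higher, as were 0.506% of all genes. All CDH26 clones lay above both controls in 9 genes and below in 1, beside 8.98% and 9.93% of all genes.

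TLR3, the endosomal receptor for viral RNA, was at 0.07 and −0.07 in the controls and at 1.25, 1.12 and 0.64 in the CDH26 clones, a difference of 1.00 ± 0.22 (SE). STARD5, a lipid carrier, was at 0.22 and −0.22 against 1.02, 1.11 and 0.58. The nuclear body proteins SP110 and SP100 differed by 0.74 ± 0.18 and 0.70 ± 0.17. These 4 genes were picked for an unadjusted p under 0.05 in limma and a difference of at least 0.5, which favours groups without overlap. None of the 4 overlapped between the groups, and each had an adjusted p of 0.626 in limma. In TLR3, STARD5 and SP100 control clone 1 was the higher control, unlike most members.

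Other genes of the pathway gave smaller or overlapping values. Without overlap, NMI was higher in the CDH26 clones by 0.59, TRIM38 by 0.53 and PML by 0.49, while PNPT1 was lower (−0.42). GBP3 differed by 0.85, with overlap. RIGI, the sensor with which DDX60 and OASL act, was at −0.51 and 0.51 in the controls and at 1.01, 0.69 and 0.23 in the CDH26 clones. JAK1 differed by 0.0092, TYK2 by 0.14 and JAK2 by 0.15, and the adaptor MAVS by −0.19. The groups did not overlap in JAK2, which had an unadjusted p of 0.047 in limma. The chemokine gene CXCL11, a strongly interferon-inducible gene, was at −0.57 and 0.57 against −0.53, −0.97 and −0.58, and CXCL10 differed by 0.05 ± 0.63 (SE), with its controls at −0.91 and 0.91. In both chemokines control clone 2 was above all 3 CDH26 clones.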

How the data were processed

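Per the labels' protocols, total RNA of 5 TE7 clones was labelled with biotin and hybridised to Affymetrix Gene 2.0 ST arrays, 1 per clone. Per the submitters' processing notes, Affymetrix Expression Console was used. Its version and settings, and the genome build, were not given in the sources used here. The authors' deposited values are logarithms, taken as log2, of 44607 probe sets. The control clones were equal and opposite in every row (largest absolute sum 1e-06), so each row is centred on the control mean and no filter on dim probes, brightness rule or new background correction could be applied. The array's annotation gave 1 gene to 15835 probe sets, several to 0 and none to 28772. All 15835 matched the RefSeq annotation of GRCh38.p14. Probe sets were averaged per gene, giving 14812 genes.

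Groups came from the labels. A two-sided test came from limma 3.58.1 (lmFit and eBayes, with no covariate) under R 4.3.3, and p-values of all genes were adjusted together by Benjamini-Hochberg, with calls at 0.05. An exact permutation of 2 against 3 clones cannot go below 0.1 and was not used. Intervals are 95% intervals from limma. The limma step and the motif search were tested on simulated data.

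The members and lists were chosen with earlier results of these data known. Every measured member is accounted for. Values in every clone are given for members with a difference of at least 0.5, an unadjusted p under 0.05 or groups without overlap and a difference of at least 0.25, and for families whose members diverge. Of the pathway genes, those with an unadjusted p under 0.05 and a difference of at least 0.5 are described. ISG15, RSAD2, TRIM22, EPSTI1, IFIH1, DHX58, IRF9, IRF1, USP18, RIGI, the JAK kinases, MAVS, CXCL10 and CXCL11 were added after their values were seen. So were NMI, TRIM38, PML, PNPT1, GBP3 and the flanking genes ADGRL2, IFIT1B, PANK1 and PTGFR. Alternatives were array centring, a replicate block, array weights, a robust variance trend, leaving out each clone, single probe sets, genes without equal values, natural logarithms and an adjusted threshold of 0.1, and, chosen after seeing the data, each control clone alone as reference. Figures were drawn with matplotlib 3.10.9.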

Additional observations from a re-analysis of the deposited data

How the results depend on the processing

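All medians kept their direction under the alternatives other than leaving out a clone, and 0 members passed the adjusted threshold under any of them, a threshold of 0.1 included. A fit on the 6857 genes whose 5 values all differ kept 28 members. It moved the median over members to 0.43, over effectors to 0.76 and over signalling factors to 0.18. In that fit 9 members were at least 1 higher, 32.1% against 1.09% of its genes, where the share of all genes was 0.506%. An unadjusted p under 0.05 in limma with a higher value was found for 10, 35.7% against 6.87%. The CDH26 transcript (2.84) had an adjusted p of 0.0106 in limma there, against 0.25 in the main fit. If the values are natural logarithms, 12 members rather than 9 were at least 1 log2 unit higher, 34.3% against 1.09% of all genes. With each clone left out in turn, the median over members ran from 0.085 to 0.55, over effectors from 0.23 to 0.64, over sensors from 0.054 to 0.98 and over signalling factors from −0.0036 to 0.11. Over the same fits the members at least 1 higher numbered 4 to 11, or 11.4% to 31.4% against 0.338% to 0.83% of all genes. With a CDH26 clone left out, 5 to 9 members had an unadjusted p under 0.05 in limma and a higher value. These were 14.3% to 25.7%, against 1.87% to 4.11% of all genes. Members with all CDH26 clones above the controls numbered 11 to 25. The 25 were those without control clone 2, 71.4% against 23.8% of all genes. A fit with 1 control clone left takes the spread from the CDH26 group alone, so genes past the adjusted threshold were not counted for it. DDX60L ran from −0.0048 without control clone 1 to 1.36 without control clone 2. The cause was not tested.

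The clone numbers are not stated to pair the clones, and same-numbered clones deviated from their group means with a correlation across genes of −0.20 (number 1) and −0.21 (number 2). With the replicate block 5 members had an unadjusted p under 0.05 in limma (IFI44, IFI44L, SAMD9, SAMD9L and DDX60), 14.3% against 3.32% of all genes. The median was 0.35 and 11 were at least 1 higher, 31.4% against 0.83%. Number 3 occurs in the CDH26 group only, so its block takes up CDH26 clone 3, which then adds nothing to the group difference. That median and the 11 members are therefore those of the fit without CDH26 clone 3. A dim-probe filter and another background correction could not be run on centred values.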
